A study of Homo sapiens with 22 samples.

Results

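The integrin subunits ITGA2, ITGA3, ITGA5, ITGA6, ITGAV, ITGB1, ITGB3, ITGB4, ITGB6 and ITGB8 were followed through RNA-seq libraries of renal proximal tubule epithelial cells (RPTEC), a human line immortalized with hTERT. These 10 genes were a list of names, matched by symbol to 10 of the 36859 genes in the table, under a rule that names no measured value, though the list was drawn up with earlier results of these data known. The 22 libraries formed 11 groups of 2. In medium with 2% serum there were wild-type cells (WT), WT cells given TGF-β at 10 ng/ml for 72 h, 2 SETD2 knockout clones (KO1 and KO2), and a group labelled KO2 rescue. In medium with 10% serum there were 2 rescue clones (Rescue1 and Rescue2) and 4 WT lines that carried lentiviral eGFP (the control vector), PRRX1, OCT2 or SOX2. SETD2 is the enzyme that trimethylates lysine 36 of histone H3. Each KO line was 1 clone with a frameshift from CRISPR editing, and each rescue line was 1 clone of KO cells carrying FLAG-tagged SETD2 from a lentivirus. Which KO clone gave Rescue1 and Rescue2 was not in the labels. These WT lines were selected in bulk with puromycin, and the rescue cells with blasticidin. Serum, vector and selection changed together between the 2% and the 10% groups and cannot be told apart there.

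Integrins are receptors built from an α and a β subunit that join the extracellular matrix to the actin or keratin cytoskeleton. ITGB1 pairs with many α subunits, among them ITGA2 (collagen), ITGA3 and ITGA6 (laminin) and ITGA5 (fibronectin). ITGB4 pairs with ITGA6 alone, and that receptor anchors epithelial cells to laminin in hemidesmosomes. ITGAV pairs with ITGB3, ITGB6 and ITGB8, which bind RGD-containing ligands, and the pairs with ITGB6 and ITGB8 are known to activate latent TGF-β. In epithelial-to-mesenchymal transition the laminin receptors of epithelia are commonly replaced by receptors for fibronectin and interstitial collagen. A functional receptor needs both of its subunits at the surface, which RNA levels do not show.

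On GRCh38 (GENCODE release 44) the 10 genes lay on 6 chromosomes. ITGA6 was at chr2:172427354-172506459 on the plus strand, ITGAV at chr2:186590010-186680901 on the plus strand and ITGB6 at chr2:160099667-160200313 on the minus strand. ITGB3 was at chr17:47253827-47313743, ITGA3 at chr17:50055968-50090481 and ITGB4 at chr17:75721328-75757818, all on the plus strand. ITGB1 was at chr10:32887273-33005792 on the minus strand, ITGB8 at chr7:20330702-20415754 on the plus strand, ITGA2 at chr5:52989340-53094779 on the plus strand and ITGA5 at chr12:54395261-54419266 on the minus strand. All values are sums over a whole gene. The RefSeq promoter table (GRCh38.p14, 250 bases before to 50 after a start) held 10 promoters for 7 of the 10 genes. Those of ITGA6 and ITGB8 are shown because these genes moved in opposite directions in both KO clones. They are chr2:172427086-172427385 on the plus strand for ITGA6 (the first of its pair of starts) and chr7:20330650-20330949 on the plus strand for ITGB8, with capitals at matches on either strand to a GC box (GGGCGG), the E2 box read by ZEB and SNAI factors (CAGGTG) or an AP-1 site (TGANTCA).
ITGA6: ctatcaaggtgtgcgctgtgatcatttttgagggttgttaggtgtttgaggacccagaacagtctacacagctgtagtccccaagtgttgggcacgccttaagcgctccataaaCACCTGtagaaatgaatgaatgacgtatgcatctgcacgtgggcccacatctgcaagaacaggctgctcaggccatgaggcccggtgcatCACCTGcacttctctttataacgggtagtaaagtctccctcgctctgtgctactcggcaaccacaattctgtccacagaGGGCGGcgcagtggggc
ITGB8: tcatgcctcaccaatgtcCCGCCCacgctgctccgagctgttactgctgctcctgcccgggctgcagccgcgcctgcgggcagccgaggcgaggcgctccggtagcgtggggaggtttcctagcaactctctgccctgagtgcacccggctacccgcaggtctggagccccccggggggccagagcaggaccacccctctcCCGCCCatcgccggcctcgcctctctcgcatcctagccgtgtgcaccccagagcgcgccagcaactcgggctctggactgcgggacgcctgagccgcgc
The ITGA6 stretch held 2 E2 boxes and 1 GC box at 53.0% G and C, and the ITGB8 stretch held 2 GC boxes and no E2 box at 71.7% G and C. The stretch of the second ITGA6 start, at chr2:172427336-172427635, overlaps the first and had no E2 box, 3 GC boxes and 72.0% G and C. The 2 E2 boxes lie before that stretch begins. Its limit of 250 bases before the start leaves them out, so they are not assigned to either start. E2 boxes were present in 20.6% of the 35116 promoters in the table, GC boxes in 45.0% and AP-1 sites in 7.71%. A match is a run of letters and not a bound site. No matches overlapped in either stretch. ITGB6 held 1 E2 box, and ITGA5 1 AP-1 site.

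SETD2 was at 1046 to 1130 normalized counts in the 4 KO libraries, against 1852 and 2061 in WT, and Rescue1 and Rescue2 held 9764 to 10445. The libraries labelled KO2 rescue held 834 and 820, below KO2. PRRX1 averaged 0.33 in them and 31.6 in KO2 (log2 -4.65, adjusted p = 6.6e-04, limma), and POU2F2 did not pass (-1.37, adjusted p = 0.134). Against KO2, 0 of 8 fibroblast markers were higher and 1 lower, and 3 of 7 kidney epithelial markers were higher and 2 lower (4.96% and 5.38% of all genes). SETD2 RNA alone does not show whether this group was rescued. The WT libraries stood apart from each other at matrix genes, with COL1A1 at 11919 and 532 and COL4A1 at 5934 and 125 in replicates 1 and 2. For the 10 subunits, differences against WT are given with each left out where that changes a call. For all other genes named, calls with a library left out were not examined. Of 11 proximal tubule markers, 5 were below 10 in every library. The summed level of 7 general kidney epithelial markers ran from 38710 to 42570 in WT, from 17570 to 26590 in the KO clones and from 26130 to 27630 in eGFP cells. KRT8 (16030 on average in WT) and KRT19 (17360) were its largest parts. Against WT, EPCAM, KRT8 and KRT19 were lower and PAX8 was higher in each KO clone. PAX2, CDH16 and KRT18 did not pass in either. The sum of 8 fibroblast markers was 223500 to 236700 in KO1 and 100100 to 103700 in KO2, against 846 and 12450 in WT, 46400 to 47810 after TGF-β and 830 to 1536 in the rescue clones. Different genes made up these sums, with DCN at 228200 on average in KO1 and 96680 in KO2, and COL1A1 at 45800 with TGF-β. Against WT, 4 of the 8 were higher in each KO clone (DCN, LUM, PDGFRA and THY1), COL3A1 was lower in KO1, and COL1A1, at 928 in KO1, did not pass in either. The part of these genes in the integrin results was not tested. In bulk RNA, fewer cells of a kind and less RNA per cell cannot be told apart.

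Per kilobase of the longest protein-coding transcript, ITGB3 was the highest subunit in WT at 1232 ± 205 normalized counts (SD, n = 2). ITGB4 followed at 809 ± 229 and ITGB1 at 767 ± 139, which did not differ beyond their spread. Then came ITGA6 at 197 ± 5.45 and ITGA3 at 178 ± 29.0, also within their spread, and ITGB6 at 93.6 ± 20.5. ITGA5 at 22.7 ± 20.4, ITGB8 at 6.60 ± 6.99, ITGAV at 3.55 ± 4.31 and ITGA2 at 3.26 ± 4.61 overlapped one another. With the median length of the protein-coding transcripts instead, ITGA3 (387) came above ITGA6 (254) and ITGB1 (963) above ITGB4 (858), and ITGB3, ITGB6 and ITGA5 also moved by over 1.5 times. The order has another limit, because several genes that every cell uses were low too, with talin (TLN1), the activator of integrins, at 42.4 to 310 normalized counts. A level read between genes may therefore not cover all of a gene's transcripts. Comparisons of 1 gene between libraries do not rest on that order, but genes of general use also differed between groups. Of 8 such genes, 2 were higher and 4 lower in eGFP cells than in WT (13.1% and 13.5% of all genes, limma). Against WT, 0 were higher and 3 lower in KO1 (19.0% and 20.8%) and in KO2 (15.3% and 13.7%), and 1 was higher and 2 lower with TGF-β (8.50% and 9.22%). In both KO clones the 3 were ACTB, EEF1A1 and TUBA1B, the last at log2 -2.45 in KO1 and -1.52 in KO2 (adjusted p = 1.1e-11 and 4.6e-09). EEF2 averaged 20.7 in WT and 1518 in eGFP cells (log2 6.49, adjusted p = 4.8e-04), and GAPDH 4927 and 519 (-2.84, adjusted p = 0.00552). Whether this bears on the integrin differences was not tested.

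In the tests below, a value is a normalized count recovered from the table, a difference is on the scale of log2(normalized count + 1), and a gene passed with an adjusted p under 0.05 (limma, Benjamini-Hochberg over 14585 genes). With TGF-β against WT, 2 of the 10 subunits rose and 0 fell, where 8.50% of all tested genes rose and 9.22% fell. KO1 against WT had 1 higher and 4 lower subunits, against 19.0% and 20.8% of all genes. KO2 against WT also had 1 higher and 4 lower, against 15.3% and 13.7%. Between the mean of the KO clones and WT with TGF-β, 1 subunit was higher and 5 were lower in KO, against 18.1% and 18.2%. KO1 and KO2 differed at 2 subunits, against 16.0% of genes in either direction. Rescue1 and Rescue2 together against both KO clones had 4 higher and 1 lower, against 22.5% and 23.2%. Rescue against eGFP had 4 higher and 2 lower, against 14.9% and 14.6%. The group labelled KO2 rescue had 2 higher than KO2 and 0 lower, against 4.96% and 5.38%. eGFP cells had 1 higher and 2 lower than WT, against 13.1% and 13.5%. With a difference over 2-fold required as well, the subunits were 2 for TGF-β (7.84% of genes), 4 for KO1 (25.0%) and 3 for KO2 (16.3%) against WT, and 6 for KO against TGF-β (20.2%). They were 1 for KO1 against KO2 (6.97%), 3 for rescue against KO (23.3%), 3 for rescue against eGFP (13.1%), 1 for KO2 rescue against KO2 (4.17%) and 3 for eGFP against WT (12.7%). Several of these comparisons share the WT, eGFP or KO libraries and are not independent of each other. No label said that replicates came from separate cultures, so the p-values measure the spread between these libraries only.

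**Figure D1:**
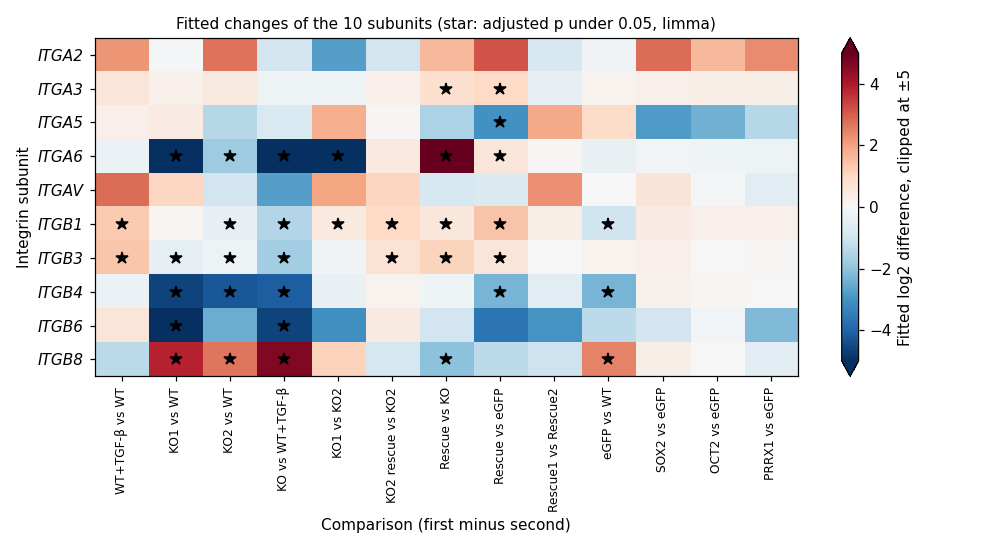
Fitted log2 differences of the 10 integrin subunits (rows) in 13 comparisons (columns, first group minus second), in colour, clipped at 5 either way, with a star where the adjusted p was under 0.05 in limma. ITGB3 and ITGB1 carry stars in 7 and 8 comparisons and ITGA2 and ITGAV in none, and the dark ITGA6 cells of KO1 rest on libraries listed at 0.

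ITGB4, the β subunit of the hemidesmosome receptor, had the steepest loss in the KO clones among subunits detected in all libraries. It was at 3812 and 5723 in WT, 233 and 153 in KO1, and 199 and 300 in KO2. Both clones lay far below WT with no overlap, by 24.7-fold in KO1 (log2 difference -4.62, SE 0.31, adjusted p = 1.9e-08) and 19.1-fold in KO2 (-4.25, SE 0.31, adjusted p = 8.8e-08). TGF-β gave 4409 and 3211, which overlapped WT. ITGB4 differed between KO and TGF-β by 17.2-fold (log2 -4.12, adjusted p = 1.4e-08).

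The rescue clones did not return to WT at this gene. Rescue1 held 108 and 217, Rescue2 197 and 247, and the libraries labelled KO2 rescue 294 and 260, all in the range of the KO clones or below it. The fitted difference of rescue from KO was -0.22 on the log2 scale (SE 0.22, adjusted p = 0.441), while SETD2 itself was at 9764 or more in those clones. In eGFP cells ITGB4 was 878 and 979, so rescue was 4.82-fold lower than its 10% serum control (log2 -2.33, adjusted p = 1.3e-05). The eGFP cells were themselves 5.13-fold below WT (log2 -2.33, adjusted p = 6.1e-05), and serum and transduction cannot be told apart in that step.

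ITGA6, the α partner of ITGB4, was lower in the KO clones too, and was near or above its WT level in the rescue clones. WT had 1125 and 1170, KO2 331 and 342, and both KO1 libraries were listed at 0. KO2 was 3.41-fold below WT (log2 -1.77, SE 0.16, adjusted p = 1.0e-06). KO1 differed from WT with an adjusted p of 3.2e-15 and from KO2 with 1.9e-13 (0.0576 in a fit of the 4 KO libraries alone), for which no fold is given. Of all 36859 genes, ITGA6 was the only 1 listed at 0 in both KO1 libraries and at 300 or more in each of the other 20. That threshold was not in the fixed design and lies just under the lowest ITGA6 count outside KO1, 331 in KO2, so this is a description only. Since genes of general use were also low in some libraries, an entry of 0 is not shown to be an absent transcript.

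Rescue1 held 1363 and 1354 ITGA6 counts and Rescue2 1447 and 1159, beside 1125 and 1170 in WT. Against KO2 alone, a comparison chosen after the data were seen, rescue was higher by 1.97 on the log2 scale (adjusted p = 6.56e-08), and against both KO clones the adjusted p was 1.0e-14. The eGFP libraries held 994 and 783, and rescue was 1.5-fold above them (log2 0.59, adjusted p = 0.0056), a call lost without eGFP replicate 2 (0.42, adjusted p = 0.109). Libraries with the KO2 rescue label held 519 and 417, which did not pass against KO2 (log2 0.47, adjusted p = 0.0923). TGF-β gave 934 and 956, below both WT libraries without passing.

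ITGB4 and ITGA6 moved apart in the rescue clones. The ratio of ITGB4 to ITGA6 counts within a library was 0.603 and 0.875 in KO2, against 3.39 and 4.89 in WT and 4.72 and 3.36 after TGF-β. It was 0.884 and 1.25 in eGFP cells and 0.0793 to 0.214 in the 4 libraries of the rescue clones, the lowest of all libraries with ITGA6 above 0. The ratio of counts is not a ratio of molecules, and only its movement between groups is read here.

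**Figure D2:**
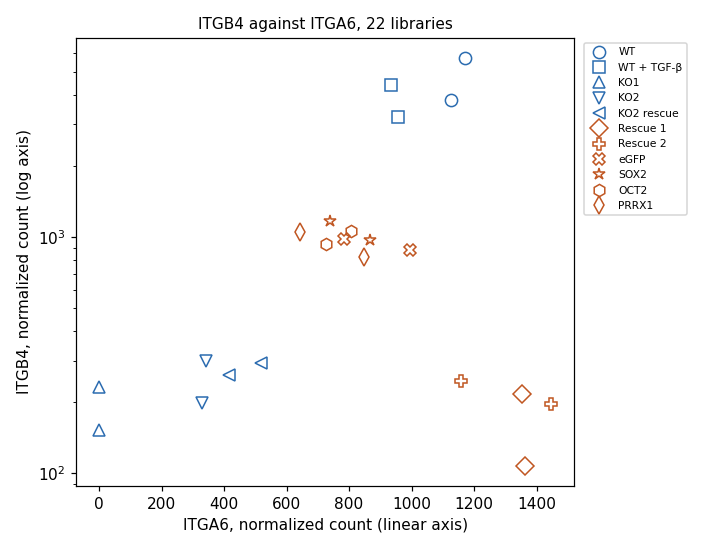
ITGB4 (log axis) against ITGA6 (linear axis) in normalized counts, with 1 symbol per library, blue for 2% and orange for 10% serum. WT and TGF-β libraries sit at the top right, the KO clones at the bottom left, the transduced WT lines in between at 823 to 1168 ITGB4 counts, and the rescue clones alone at the bottom right with 1159 to 1447 ITGA6 counts and 108 to 247 ITGB4 counts.

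ITGA3, the other laminin-binding α subunit, did not pass in either KO clone. It was at 770 and 970 in WT, 955 and 1089 in KO1 and 962 and 1480 in KO2. The rescue clones were highest, with 1676 and 1662 in Rescue1 and 2417 and 2057 in Rescue2, all above the 4 KO libraries (log2 0.81, SE 0.19, adjusted p = 0.00325). Against eGFP, with 1415 and 677, the difference was 0.98 (adjusted p = 0.00576) and was lost without eGFP replicate 2 (0.45, adjusted p = 0.17) and in a fit of only these libraries (adjusted p = 0.0865).

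ITGB3, the β subunit that with ITGAV binds fibronectin, vitronectin and osteopontin, rose with TGF-β and fell slightly with SETD2 loss. WT held 8182 and 6458, TGF-β cells 19505 and 18165, KO1 5572 and 5199, and KO2 5871 and 6202. TGF-β raised it 2.57-fold (log2 1.37, SE 0.08, adjusted p = 4.1e-08). KO1 was 1.36-fold below WT (-0.43, SE 0.08, adjusted p = 5.5e-04) and KO2 1.21-fold below (-0.27, SE 0.08, adjusted p = 0.0208), the latter lost without WT replicate 1 (-0.10, adjusted p = 0.259) or KO2 replicate 1 (-0.23, adjusted p = 0.133). With only the libraries compared in the fit, the differences of TGF-β, KO1 and KO2 from WT kept their size without passing (adjusted p = 0.0738, 0.157 and 0.297). KO cells held 3.30-fold less ITGB3 than WT cells given TGF-β (adjusted p = 5.7e-11).

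The rescue clones held more ITGB3 than the KO clones or the eGFP cells. Rescue1 held 12436 and 12089 and Rescue2 12736 and 12359, above the KO clones by 2.17-fold (log2 1.12, SE 0.06, adjusted p = 6.6e-10) and above eGFP cells, with 8020 and 8170, by 1.53-fold (0.62, SE 0.07, adjusted p = 1.1e-05). ITGB3 was also higher in the libraries labelled KO2 rescue, with 10124 and 10023, than in KO2 (log2 0.74, adjusted p = 2.3e-05).

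ITGB1, the most widely shared β subunit, rose with TGF-β and was lowest in the transduced WT lines. It was at 4160 and 3213 in WT, 9462 and 8625 with TGF-β (2.45-fold, log2 1.30, SE 0.15, adjusted p = 2.5e-05), 3948 and 3779 in KO1 and 2640 and 2821 in KO2. KO1 did not pass against WT (log2 0.08, adjusted p = 0.719). KO2 lay 1.35-fold below WT (-0.42, SE 0.15, adjusted p = 0.047) and 1.42-fold below KO1 (adjusted p = 0.0341), both of which were lost in many alternatives, among them without WT replicate 1 for the first (-0.24, adjusted p = 0.356) and without any 1 of the 4 KO libraries for the second. Rescue1 had 5430 and 5186 and Rescue2 4735 and 4012, above KO (log2 0.57, SE 0.11, adjusted p = 4.6e-04) and 2.67-fold above eGFP (1.41, SE 0.13, adjusted p = 1.2e-06). Against KO1 alone the rescue difference did not pass (0.32, adjusted p = 0.0604).

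The eGFP libraries held 1724 and 1897 ITGB1 counts, 2.04-fold below WT (log2 -1.01, SE 0.15, adjusted p = 1.4e-04). Libraries with the KO2 rescue label had 4572 and 6553, 2.04-fold above KO2 (adjusted p = 3.8e-04). In fits of only the libraries compared, ITGB1 did not pass for TGF-β (adjusted p = 0.0818), eGFP (0.0616) or KO2 rescue (0.0884). A processed pseudogene, ITGB1P1, nearly matches ITGB1 in sequence and held 437 to 2388 counts, 10.4 to 37.7% of the summed pair, so reads may be split between them. With the pair summed, an alternative added after the data were seen, the 6 larger ITGB1 differences still passed and those of KO2 from WT (-0.30, adjusted p = 0.21) and from KO1 (0.34, adjusted p = 0.197) did not.

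**Figure D3:**
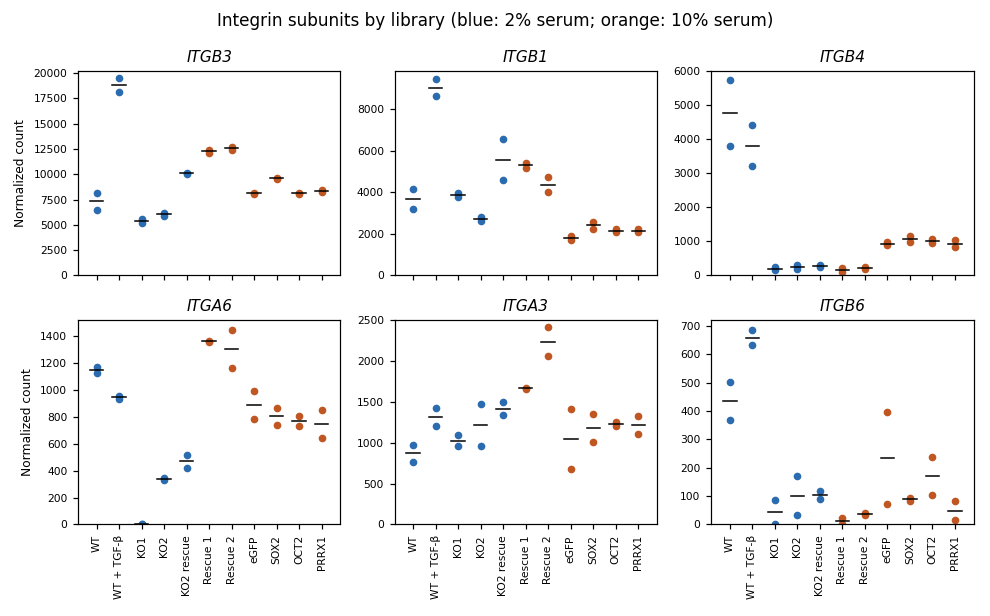
Normalized counts (linear axes from 0) of 6 integrin subunits in each library, with 1 point per library, a bar at the mean of 2, and blue for 2% and orange for 10% serum. ITGB3 and ITGB1 peak with TGF-β, ITGB4 and ITGA6 drop in KO1 and KO2, and ITGA6 but not ITGB4 is high in Rescue1 and Rescue2.

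ITGB8, a β subunit that with ITGAV activates latent TGF-β, was the 1 member that rose in both KO clones. WT held 14.9 and 104, KO1 487 and 693, and KO2 244 and 279, and no KO library overlapped WT. KO1 was 9.96-fold higher (log2 3.84, SE 0.58, adjusted p = 8.5e-05) and KO2 4.42-fold higher (2.68, SE 0.58, adjusted p = 0.00247). The size rests on which WT library is used, running from 2.48 to 5.19 for KO1 and from 1.33 to 4.04 for KO2 without either WT library, and the calls held in each case. In a fit of only the libraries compared, the same differences did not pass (adjusted p = 0.0993 for KO1 and 0.182 for KO2). TGF-β gave 16.5 and 13.6, so KO and TGF-β differed by 28.2-fold (log2 4.61, SE 0.50, adjusted p = 3.7e-06).

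ITGB8 was at 62.7 and 66.7 in Rescue1 and at 155 and 112 in Rescue2. The rescue clones lay below the KO clones by 4.29-fold (log2 -2.06, SE 0.41, adjusted p = 7.8e-04), but these groups differ in serum. Against eGFP cells in the same serum, the rescue clones were lower without passing (log2 -1.29, adjusted p = 0.0681). A fit of only the rescue and eGFP libraries gave an adjusted p of 0.0228. Libraries labelled KO2 rescue did not pass against KO2 (log2 -0.87, adjusted p = 0.443). The eGFP libraries held 193 and 269, which was 3.90-fold above WT (2.49, SE 0.58, adjusted p = 0.00507, 1.13 to 3.85 without either WT library, and adjusted p = 0.245 in a fit of only these libraries). KO1 and KO2 did not pass against each other (1.15, adjusted p = 0.206).

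ITGB6, the epithelial partner of ITGAV, was highest in WT and TGF-β libraries on average and varied widely between replicates. WT held 502 and 367 and TGF-β 688 and 632, against 84.6 and 0 in KO1 and 33.3 and 171 in KO2. KO1 lay below WT (log2 -5.54, SE 1.70, adjusted p = 0.0173), a value that rests on the library listed at 0. Without that library it moved to -2.33, and the call was lost. Leaving out WT replicate 1 or 2 also lost the call (-5.31 and -5.76), as did a fit of only the libraries compared (adjusted p = 0.22). KO2 did not pass. Against TGF-β the mean of both KO clones was lower (-4.63, SE 1.47, adjusted p = 0.0227), and KO2 alone did not pass (-3.10, adjusted p = 0.202). This call too was lost in a fit of only the libraries compared (adjusted p = 0.142). It was also lost without either TGF-β library, KO2 replicate 1 or KO1 replicate 2, the last of which moved the difference to -3.03. Rescue1 held 0 and 23.1 and Rescue2 39.7 and 35.1. The eGFP libraries lay far apart, at 397 and 73.6, and overlapped WT.

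The remaining α subunits were low. ITGA5, the fibronectin receptor's α subunit, ran from 5.84 to 188 and passed in 1 comparison, with 178.5 and 111 in eGFP cells against 27.7 and 39.7 in Rescue1 and 5.84 and 11.2 in Rescue2 (log2 -3.01, SE 0.79, adjusted p = 0.0095, lost without eGFP replicate 1). ITGAV, the α subunit of ITGB3, ITGB6 and ITGB8, was at 46.4 and 3.51 in WT and 170 and 60.2 with TGF-β (log2 2.81, adjusted p = 0.16). ITGA2, the collagen receptor subunit, was between 0 and 112 and passed in none of the 13 comparisons. At such counts a p that misses the threshold does not show that these subunits did not change.

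**Figure D4:**
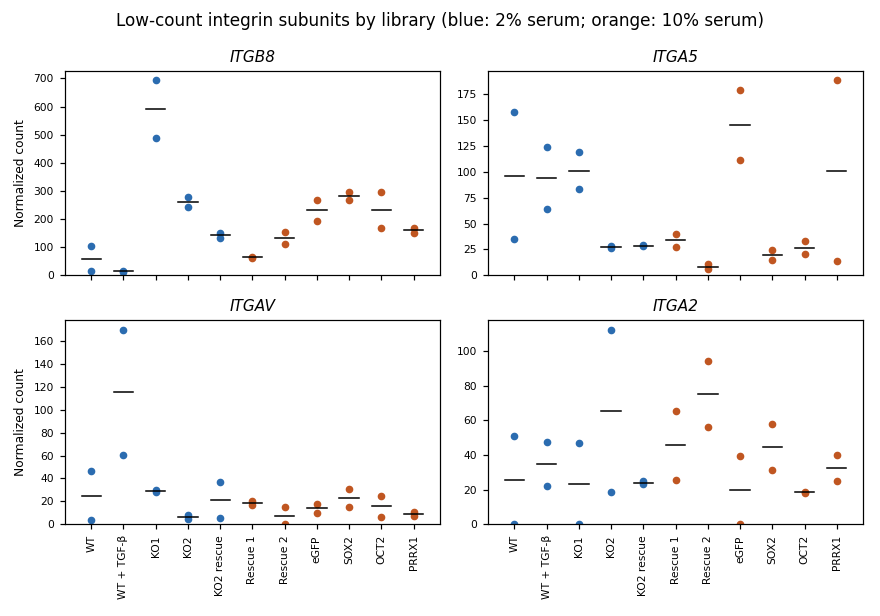
Normalized counts (linear axes from 0) of the 4 low subunits in each library, with 1 point per library, a bar at the mean of 2, and blue for 2% and orange for 10% serum. ITGB8 is highest in KO1 and lowest in the TGF-β libraries and 1 WT library, and the points of ITGA5, ITGAV and ITGA2 lie far apart within several groups.

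The ectopic transcription factors were compared with eGFP cells in the same serum. In SOX2, OCT2 and PRRX1 cells 0 of the 10 subunits passed (limma), where 0.0206%, 0.0411% and 0.0480% of all genes passed. At an unadjusted p under 0.05 there were 3 subunits for SOX2 (ITGA5, ITGB1 and ITGB3), 1 for OCT2 (ITGA5) and 0 for PRRX1. The share of all genes at that unadjusted threshold was not computed, so nothing is read from these counts. ITGB3 was at 9583 and 9575 in SOX2 cells against 8020 and 8170 in eGFP cells (log2 0.24, SE 0.08, adjusted p = 0.551). ITGB4 in the 3 lines was between 823 and 1168, around its eGFP level, and ITGA6 was between 644 and 867. PRRX1 itself was at 395 and 404 in the PRRX1 libraries, and POU2F2, the gene for OCT2, at 1251 and 1121 in the OCT2 libraries against 279 and 357 in eGFP. That last difference did not pass either (adjusted p = 0.42), so the absence of calls in these lines does not show that the subunits were unchanged. No value of SOX2 itself is given here, so its expression in the SOX2 libraries was not checked. ITGA5 was at 24.1 and 14.6 in SOX2 cells, below both eGFP libraries, without passing (log2 -2.84, adjusted p = 0.53). Rescue1 and Rescue2 differed at 0 subunits past the test, where 1.52% of all genes passed. At an unadjusted p under 0.05 there were also 0, again without a share of all genes.

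Of 16 further integrin subunits, 10 had enough counts to be tested. ITGA1, another collagen-binding α subunit, was 16.3-fold higher in KO1 and 12.3-fold in KO2 than in WT, with 2958 and 2779 in KO1 and 2350 and 1979 in KO2 against 224 and 129 (adjusted p = 7.7e-09 and 4.7e-08). It was at 126 to 213 in the rescue clones, 15.5-fold below KO (adjusted p = 1.9e-10), and at 434 and 388 in the libraries labelled KO2 rescue. ITGA11, which binds fibrillar collagen, was higher in KO2 (log2 3.6, adjusted p = 0.0181), in KO1 (5.01, adjusted p = 0.00148) and after TGF-β (5.11, adjusted p = 0.00337), all against WT libraries at 72.6 and 1.99. In all, 3 of the 10 were higher and 1 lower with TGF-β (8.50% and 9.22% of all genes), 3 and 1 in KO1 (19.0% and 20.8%), 3 and 0 in KO2 (15.3% and 13.7%), and 1 and 4 in rescue against KO (22.5% and 23.2%), with medians of 0.48, 0.32, 1.59 and -0.51 against 0.00 over all genes in each.

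Among 25 tested integrin ligands, 9 were higher and 10 lower in KO1 (19.0% and 20.8% of all genes), 7 and 10 in KO2 (15.3% and 13.7%), 11 and 3 with TGF-β (8.50% and 9.22%), and 8 and 12 in rescue against KO (22.5% and 23.2%). FN1, fibronectin, was higher with TGF-β (2.27, adjusted p = 5.1e-04), KO1 (2.77, adjusted p = 2.4e-05) and KO2 (2.46, adjusted p = 1.1e-04), while WT held 697560 and 180970. NPNT, the kidney ligand of an integrin with ITGB1, was lower in KO1 (-4.76, adjusted p = 8.3e-05) and KO2 (-5.02, adjusted p = 7.5e-05). The medians were -0.85 in KO1, -0.25 in KO2, 0.65 with TGF-β and -0.33 in rescue against KO.

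The cytoplasmic linkers and activators (28 tested) split both ways in the KO clones, with 7 higher and 8 lower in KO1 (19.0% and 20.8% of all genes) and 9 and 8 in KO2 (15.3% and 13.7%), and 11 higher and 2 lower with TGF-β (8.50% and 9.22%). FERMT1, the epithelial kindlin that activates integrins, was at 984 and 849 in WT, 29.2 and 56.2 in KO1 and 127 and 123 in KO2 (log2 -4.46 and -2.86, adjusted p = 1.1e-09 and 2.6e-07), and rescue was 2.21 higher than KO (adjusted p = 4.4e-08). TNS1, a tensin, was higher with TGF-β (2.30, adjusted p = 1.2e-06). Of 10 tested membrane partners, 4 rose and 1 fell in KO1 (19.0% and 20.8% of all genes), and 3 rose and 1 fell in KO2 (15.3% and 13.7%). In rescue against KO, which differ in serum, 0 were higher and 9 lower (22.5% and 23.2%). Against eGFP cells in the same serum, 7 were higher and 1 lower in rescue (14.9% and 14.6%). The eGFP cells had 1 higher and 7 lower than WT (13.1% and 13.5%). CD82, a tetraspanin, was at 578 and 357 in WT, 5874 and 5208 in KO1 and 3368 and 2598 in KO2 (log2 3.6 and 2.70, adjusted p = 9.4e-09 and 4.1e-07). Of 4 tested hemidesmosome partners, COL17A1 was lower in both KO clones (adjusted p = 0.00762 and 0.0154) and was at 34.3 on average in WT. CD151 was higher in KO1 (0.33, adjusted p = 0.0393) and did not pass in KO2, and PLEC and DST did not pass in either clone.

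**Figure D5:**
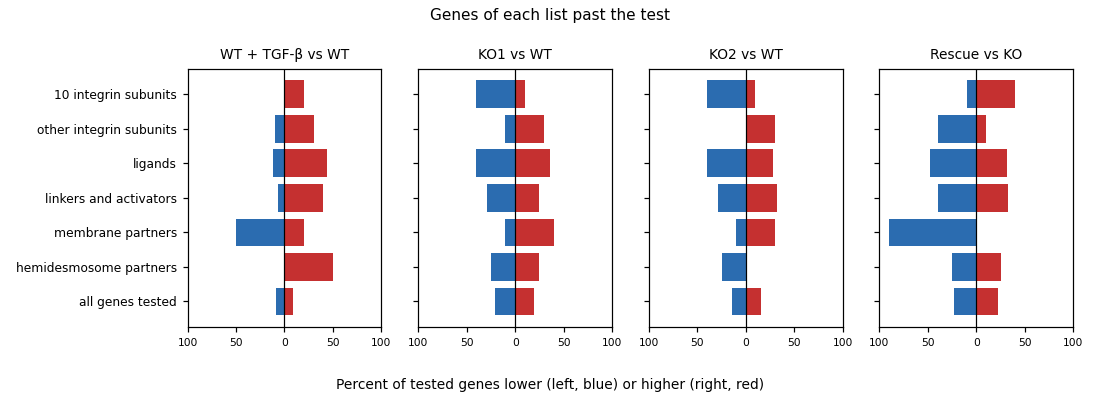
Percent of the tested genes of each list that were higher (red, right) or lower (blue, left) with an adjusted p under 0.05 in 4 comparisons, with all tested genes in the bottom row. Membrane partners were lower in rescue (10% serum) against KO (2% serum) for 9 of 10 (23.2% of all genes). Against eGFP cells in the same serum, not drawn, 7 were higher and 1 lower (14.9% and 14.6%). Of the 10 subunits, 4 were lower in KO1 (20.8% of all genes) and 4 in KO2 (13.7%), of which ITGB1 and ITGB3 in KO2 were lost in several alternatives.

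Likeness of pattern was measured as Pearson's r over the 11 group means, which share libraries and normalization, and is a description. CLDN16 (0.973) and TMEM52B (0.970) were among the genes most like ITGB4. MYADM (0.974), BCR (0.958) and LRRC8A (0.958) were most like ITGB1, and ENAH (0.934), SPHK1 (0.926) and STK38L (0.924) most like ITGB3. ADAM28 (0.974), RHOT1 (0.963) and SAA1 (0.963) were most like ITGB8. Among the subunits themselves r was 0.83 for ITGB4 with ITGB6, -0.73 for ITGB3 with ITGB8, and -0.67 for ITGB1 with ITGB8.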

How the data were processed

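RNA of 22 RPTEC libraries was made with a stranded poly(A) protocol and sequenced in pairs. The authors quantified reads with Salmon 1.9.0 against GRCh38 cDNA (Ensembl release 94), then DESeq2 1.26.0, per the submitters' processing notes and the study's methods. The deposited log2 values (36859 genes) share a minimum of 11.32 in all 22 libraries and were read as variance-stabilized normalized counts. The step is not named in the sources used here. Inverting it gave normalized counts, a step that the fixed design had not foreseen. Totals were 11674491 to 16758645 per library, from about 7600000 to 18600000 reads, approximated from the most frequent low value. Counting error and low reads limit genes near 0. Symbols and lengths came from GENCODE release 44 (33878 of 36859 genes matched), and 15340 genes were at 0 in every library.

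Tests used limma 3.58.1 (R 4.3.3) on log2(normalized count + 1) with a variance trend, all 22 libraries in 1 fit, a mean per group and no covariate, for 14585 genes with at least 10 in at least 2 libraries, and Benjamini-Hochberg adjustment over them. Lists were judged by counts and medians. Folds are ratios of group means. Named were the 10 members, up to 4 genes per list and comparison past the test with the largest difference, and the 3 genes most alike each member, of which the text prints some and some are not reported here. The code was tested on simulated data. Alternatives covered the pseudocount, filter, scaling, deposited log2 values, the fit of only the compared libraries, a replicate block and each library left out. Calls under them were read for the 10 subunits only. The members and lists were chosen with earlier results of these data known. Replicate numbers did not pair the samples, since over 55 pairs of groups r between same-numbered deviations was -0.08 to 0.05. Python 3.11.15, numpy 2.4.6, pandas 2.3.3 and matplotlib 3.10.9 handled the data.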

Additional observations from a re-analysis of the deposited data

Results flagged for a closer look

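The KO clones differed from each other by a test of the difference itself at 2 subunits. ITGA6 was listed at 0 in both KO1 libraries and at 331 and 342 in KO2 (adjusted p = 1.9e-13, limma over all libraries), and in a fit of the 4 KO libraries alone the adjusted p was 0.0576. ITGB1 was at 3948 and 3779 in KO1 and 2640 and 2821 in KO2 (adjusted p = 0.034), and this did not pass with its pseudogene summed.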

How the results depend on the processing

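Of 36 subunit differences past the test, 1146 values were computed under alternatives. Of these, 1089 kept their direction and side of the threshold, 57 kept the direction without passing and 0 reversed. Many left out a library outside the groups compared, which cannot change the fitted difference, so this total does not measure stability. With only the libraries compared in the fit, 21 of the 36 passed and 15 did not. The subunits past the test, counted with only the libraries compared, were 0 for TGF-β against WT, 2 for KO1 and 2 for KO2 against WT, 0 for KO1 against KO2, 1 for KO2 rescue against KO2 and 1 for eGFP against WT, where that fit has fewer residual degrees of freedom. Requiring over 2-fold left 3 for KO2 against WT, 1 for KO1 against KO2, 3 for rescue against KO, 3 for rescue against eGFP and 1 for KO2 rescue against KO2. Quantile normalization gave 1 for KO1 against KO2. Leaving out 1 library at a time gave 2 to 4 for TGF-β, 3 to 5 for KO2 against WT (3 without WT replicate 1 or KO2 replicate 1) and 1 to 4 for KO1 against KO2. With 1 library left in an arm, that library is assumed to vary like the others. A replicate block, for which the numbers gave no sign of pairing, gave 4 for KO2 against WT, ITGB1 no longer passing (-0.42, adjusted p = 0.0532), and 7 for KO against TGF-β. Scaling libraries to the same total moved the median of all genes by -0.39 in KO1, -0.20 in KO2 and with TGF-β, and 0.37 in rescue against KO. In KO1 against KO2 the median moved from -0.03 to -0.21. This scaling reversed no difference that passed. The median transcript length in place of the longest gave 387 per kilobase for ITGA3, 254 for ITGA6, 963 for ITGB1, 2591 for ITGB3 and 169 for ITGB6 in WT. Depth limits ITGA2, ITGA5, ITGAV and ITGB6.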
